A study of Mus musculus with 24 samples.

Results

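The 10 genes described here belong to the antioxidant programme of the transcription factor NRF2: the regulators Nfe2l2 and Keap1, the glutathione genes Slc7a11, Gclc and Gclm, the thioredoxin and peroxiredoxin genes Txnrd1 and Srxn1, the quinone and heme enzymes Nqo1 and Hmox1, and the catalase gene Cat. They were chosen by gene symbol among the 26995 genes of the deposited tables, and each was represented by its 3′UTR entry with the highest mean read count over the 24 libraries. All 10 genes were found, with 13 entries among the 91830 of the tables. Nfe2l2 had 3 entries, Gclc had 2 that counted the same reads, and each of the other genes had 1. No entry of these genes overlapped an entry of another gene.

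NRF2, encoded by Nfe2l2, is held at a low level by KEAP1, which brings it to a CUL3 ubiquitin ligase for degradation. Electrophiles and oxidants modify cysteines of KEAP1, after which NRF2 accumulates, pairs with small MAF proteins and binds antioxidant response elements at genes of glutathione synthesis, thioredoxin reduction, quinone reduction and heme breakdown. Its activity is thus set largely at the protein level, which RNA reads do not measure. Adipocytes take up and oxidise fatty acids, and catalase, which removes hydrogen peroxide in peroxisomes, is a gene that they are known to express.

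3T3-L1 is a mouse fibroblast line of pre-adipocytes that becomes adipocytes when confluent cultures receive dexamethasone, 3-isobutyl-1-methylxanthine and insulin. At day 3 the study replaced this medium with one that kept insulin and left out the other compounds. The cells were treated with DMSO or with 0.5 μM ML-792, an inhibitor of the SUMO-activating enzyme, and were collected at days −2, 1, 3 and 7 of differentiation, with 3 biological replicates named A, B and C for each of the 8 groups. The study's viability assay added ML-792 from day −2, and its methods give no start for the sequenced cultures. Length of exposure, above all at day −2, is therefore not known here. Day, medium and length of exposure cannot be told apart. All groups, controls included, received 100 μM of 4-thiouridine for 45 min before harvest, so that RNA made in that time carries T to C conversions in the reads. Total reads report the RNA present, and labelled reads, with at least 1 conversion, report the newly made part of it. One cell line was studied, in bulk: fewer cells of a type and less RNA per cell cannot be told apart.

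Libraries held 13554718 to 27013352 total reads and 115709 to 820046 labelled reads. Correlations between replicates of a group over the tested entries were 0.956 to 0.983 for total reads and 0.692 to 0.88 for labelled reads. Replicate B stood apart from A and C: in DMSO at day 1 against day −2, 2247 genes passed the test with all letters, 2942 when B was left out, 514 when A was and 858 when C was. Values of the pre-adipocyte markers Dlk1, Thy1, Pdgfra, Cd34 and Ly6a, summed, were 43568 normalized counts in replicate B of DMSO at day −2, against 76812 and 74059 in A and C. The 6 adipocyte markers Adipoq, Fabp4, Plin1, Lpl, Cebpa and Pparg summed to 22609 to 24033 in DMSO at day −2 and to 570180 to 629014 at day 7. Macrophage markers summed to at most 140.0, with Ptprc at 0 in every library, and endothelial markers to at most 20.5.

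NRF2 is known to bind the antioxidant response element, whose core TGACNNNGC was searched on both strands of the RefSeq windows running from 250 bases before to 50 bases after each gene's start (GRCm38.p6). Windows were found for 8 of the 10 genes, all but Hmox1 and Gclc. The core was present in 4 of those 8 genes, namely Nfe2l2, Gclm, Srxn1 and 1 of the 3 windows of Txnrd1, and in 12.4% of all 32851 windows. The first count is of genes and the second share is of windows, and a gene with 3 windows has more chances of a match. The matches are shown so that the letters found near these starts can be read, and no value here bears on whether NRF2 binds them. Each is printed with the core in capitals, on the strand that holds it.
Nfe2l2 (chr2:75704887-75704911, same strand as the gene): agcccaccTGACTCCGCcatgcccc
Gclm (chr3:122245415-122245439, opposite strand): gtgagagtTGACGGTGCgcccggga
Srxn1 (chr2:152105544-152105568, opposite strand): tctcactcTGACCTAGCtgcccact
Txnrd1 (chr10:82859106-82859130, opposite strand): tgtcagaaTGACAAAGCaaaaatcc
The core's base nearest the window's upstream end lay at position −240 from the start of Nfe2l2, −134 from that of Gclm, −92 from that of Txnrd1 and 29 from that of Srxn1. The windows of Keap1, Nqo1, Slc7a11 and Cat held no match, which says only that these letters are not in those windows.

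In total reads all 10 genes passed the filter on low counts. Genes were called at an edgeR adjusted p under 0.01 over the DMSO time course and under 0.1 for ML-792 against DMSO, the thresholds of the study. The 3 comparisons of the time course share the day −2 libraries, and the DMSO libraries of a day are also the controls of ML-792 on that day. At day 1 of DMSO against day −2, 2 of the 10 genes were higher (Gclc, Srxn1) and 2 lower (Slc7a11, Hmox1), where 7.29% of the 12805 tested genes were called higher and 10.3% lower. At day 3, 1 was higher (Cat) and 1 lower (Nqo1), beside 17.4% and 20.1% of genes. At day 7, 5 were higher (Cat, Gclm, Srxn1, Keap1, Gclc) and 1 lower (Nqo1), beside 19.6% and 20.1%. The median log2 change of the 10 genes was 0.03, 0.06 and 0.60 on the 3 days, and that of all tested genes 0.00, 0.00 and −0.02. Nfe2l2 and Txnrd1 were not called on any day by this fit, which held no block for the replicate letter. With that block Txnrd1 was called lower at days 3 and 7.

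**Figure D1:**
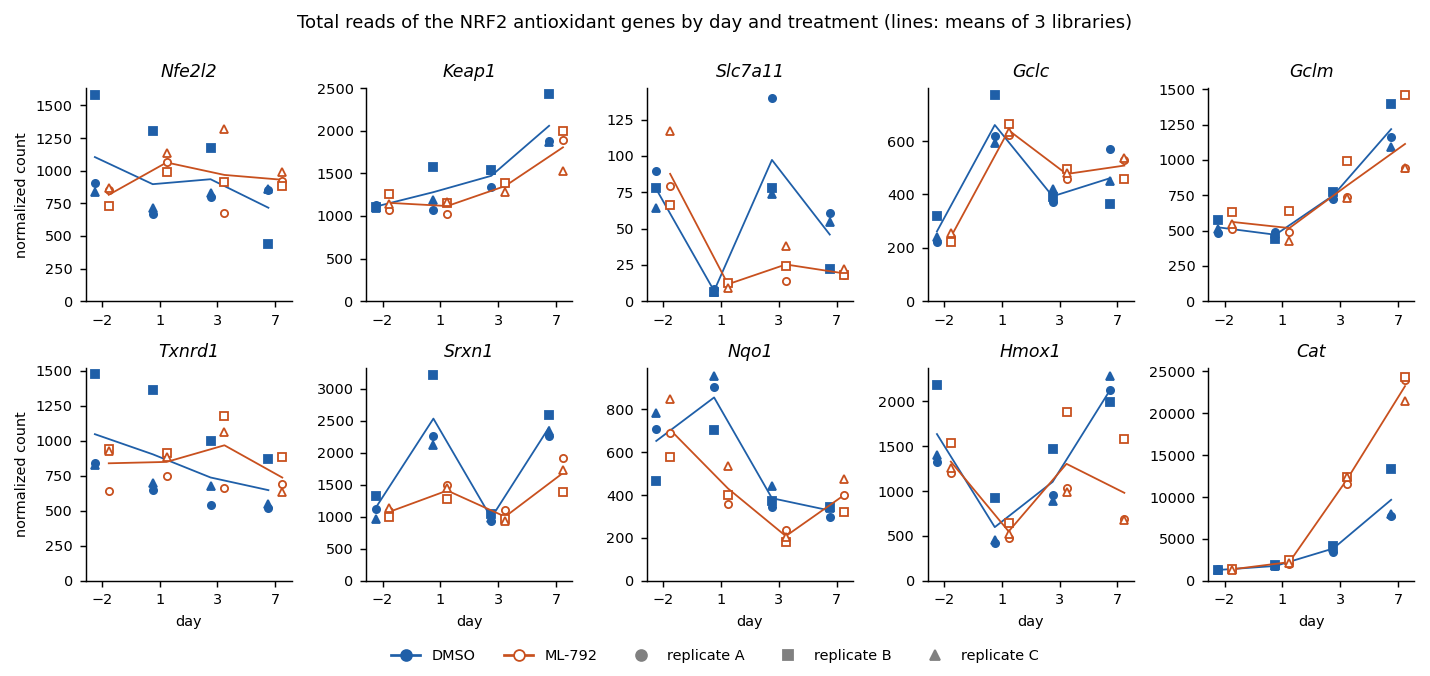
Normalized counts of total reads (y axis, starting at 0) of the 10 genes by day (x axis) in DMSO (blue, filled) and ML-792 (orange, open), with circles, squares and triangles for replicates A, B and C and lines through the means of 3 libraries. Cat rose to 7767 to 13296 at day 7 in DMSO and to 21458 to 24307 with ML-792, Slc7a11 fell to 6.4 to 8.3 at day 1 in DMSO, and replicate B of Txnrd1 lay highest in all 8 groups.

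Against DMSO, ML-792 gave no call at day −2, neither among the 10 genes nor among the 13331 tested genes (0%) with edgeR or DESeq2, and none of the 10 genes had an unadjusted p under 0.05 there, against 184 of all genes or 1.38%. At day 1, 0 of the 10 genes were higher and 2 lower with ML-792 (Nqo1, Srxn1), beside 3.72% and 4.31% of genes. At day 3, 1 was higher (Cat) and 2 lower (Slc7a11, Nqo1), beside 8.42% and 6.97%. At day 7, 1 was higher (Cat) and 3 lower (Hmox1, Slc7a11, Srxn1), beside 6.03% and 5.58%. The test of the interaction, which asks whether the time course differed between ML-792 and DMSO, called Cat, Nqo1, Slc7a11 and Srxn1, that is 4 of the 10 genes, beside 11.9% of all genes. By this fit Nfe2l2, Keap1, Gclc, Gclm and Txnrd1 were called on no day with ML-792.

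**Figure D2:**
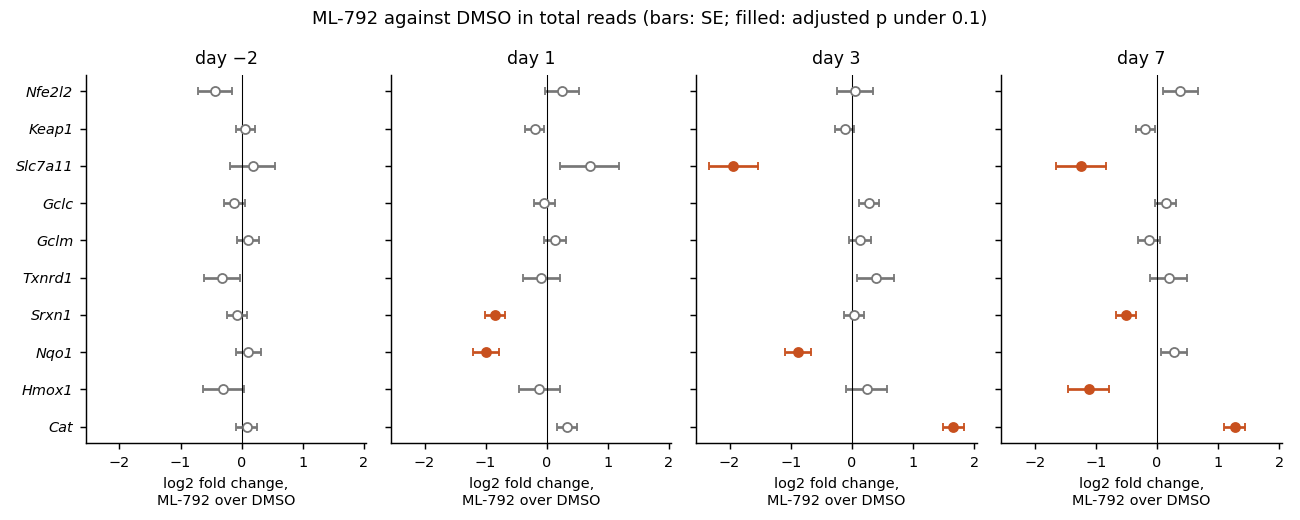
Log2 fold change of total reads in ML-792 over DMSO (x axis) for the 10 genes (y axis), 1 panel a day, with bars for the standard error of the fit and filled orange points for genes past an adjusted p of 0.1. Points lay within 0.44 of 0 at day −2, and Cat at 1.66 and 1.27 stood on the opposite side of the genes called lower at days 3 and 7.

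Of the regulators, Nfe2l2 passed no test in total reads and Keap1 was called at day 7 of DMSO. Nfe2l2 was counted on the 3′UTR entry NM_010902.4 (mm10, chromosome 2, 75675513 to 75675960, minus strand, 448 bases). In DMSO it had 902, 1576 and 834 normalized counts at day −2 (replicates A, B and C), 669, 1306 and 713 at day 1, 797, 1174 and 832 at day 3, and 851, 439 and 858 at day 7. Replicate B was the highest library on the first 3 of these days and the lowest at day 7, and each later day overlapped day −2. With ML-792 the level was 853, 728 and 865 at day −2 and 919, 880.1 and 992 at day 7, and the adjusted p of the 4 comparisons with DMSO ran from 0.56 to 1. At day 7 the ML-792 libraries all lay above those of DMSO, by a log2 change of 0.38 (SE 0.29) that did not pass the test. Without replicate B, Nfe2l2 was called higher with ML-792 at day 1, by a log2 change of 0.67 (adjusted p = 0.053). The other entries of Nfe2l2, of the non-coding transcript NR_132727.1, had group means of 59.5 to 170.5 and of 191 to 355 counts, and both were highest in DMSO at day 7, where the main entry was lowest.

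Keap1, the adaptor that turns NRF2 over, was higher at day 7 of DMSO. Its entry was NM_016679.4 (chromosome 9, 21229730 to 21230701, minus strand). It had 1128, 1102 and 1099 normalized counts at day −2, 1072, 1575 and 1191 at day 1, 1345, 1534 and 1535 at day 3, and 1875, 2430.2 and 1867 at day 7. The 3 libraries of day 7 were all above those of day −2, and the log2 change was 0.89 (SE 0.18, adjusted p = 0.0007). The call at 0.01 was lost without replicate A (adjusted p = 0.019) or C (0.014). With ML-792 the mean was 1116 ± 80.5 (SD, n = 3) at day 1 and 1805 ± 247 at day 7, against 1279 ± 263 and 2058 ± 323 in DMSO, and the groups overlapped on every day.

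Among the glutathione genes, Slc7a11 gave the largest single change from day −2 of the 10 genes and had the lowest counts. Slc7a11 is the cystine importer of system xc−, which brings in the cysteine that limits glutathione synthesis. Its reads fell on the entry XM_006500778.3 (chromosome 3, 50364936 to 50372301, minus strand). The DMSO libraries had 90.0, 77.8 and 63.9 normalized counts at day −2, 8.3, 6.4 and 6.6 at day 1, 140.1, 77.7 and 74.1 at day 3, and 60.9, 21.9 and 54.8 at day 7. Day 1 was the lowest group with no overlap, and the log2 change was −3.43 (SE 0.46, 10.8-fold lower, adjusted p = 6.9e-05), a call kept in all 8 alternatives. By day 3 the level was again within the range of day −2, apart from replicate A, which lay above it.

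With ML-792, Slc7a11 was low at day 1 too and had not returned by days 3 and 7. The day 1 libraries had 12.8, 12.8 and 9.3 normalized counts, slightly above those of DMSO (log2 change 0.70, SE 0.48, adjusted p = 0.57). It had 14.1, 24.1 and 37.8 normalized counts at day 3 and 17.9, 18.0 and 21.9 at day 7, all below the DMSO libraries of the same days. The log2 change against DMSO was −1.94 (SE 0.40, adjusted p = 0.0017) at day 3 and −1.25 (SE 0.41, adjusted p = 0.075) at day 7. The day 3 call was lost without replicate A (log2 change −1.29, adjusted p = 0.25). The day 7 call was lost without replicate A (0.53) or C (0.38), with no filter on low counts (0.16) and with the 6 libraries of that day fitted alone (0.17).

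Gclc and Gclm encode the catalytic and the modifier subunit of glutamate-cysteine ligase, the first enzyme of glutathione synthesis, and they followed different courses. Gclc was counted on NM_010295.2 (chromosome 9, 77793252 to 77794489, plus strand). DMSO libraries gave 223, 321 and 242 normalized counts at day −2, 618, 772 and 592 at day 1, 371, 389.5 and 419 at day 3, and 569.8, 366 and 449 at day 7. Every later library was above every library of day −2, and day 1 was the highest group, with a log2 change of 1.34 (SE 0.21, 2.52-fold, adjusted p = 0.00027). At day 7 the change was 0.82 (adjusted p = 0.0049). Without replicate A the adjusted p was 0.025 at day 1 and 0.21 at day 7, and without C 0.014 and 0.063. The change at day 3, 0.59, missed the threshold at an adjusted p of 0.034, and passed it without replicate B (0.0026).

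The entry of Gclm was NM_008129.4 (chromosome 3, 122266398 to 122267215, plus strand). It had 480.3, 577 and 512 normalized counts at day −2, 493, 443 and 475 at day 1, 724, 774 and 748 at day 3, and 1165, 1396 and 1092 at day 7. Days −2 and 1 overlapped, and days 3 and 7 lay above both. The log2 change at day 7 was 1.22 (SE 0.16, 2.33-fold, adjusted p = 1.4e-05), kept in all 8 alternatives, and that at day 3 was 0.52 (adjusted p = 0.014; 0.0033 without replicate B). With ML-792 Gclc was at 641 ± 20.0 normalized counts at day 1 and Gclm at 1113 ± 298 at day 7 (SD, n = 3). The groups overlapped DMSO on every day but for Gclc at day 3, which had 458, 494 and 479 with ML-792, all above DMSO (adjusted p = 0.4). Over the 4 days the log2 difference from DMSO lay between −0.12 and 0.28 for Gclc and between −0.13 and 0.14 for Gclm, with standard errors of 0.17 and 0.18.

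Srxn1, sulfiredoxin, reduces peroxiredoxins that hydrogen peroxide has over-oxidised. Its entry was NM_029688.5 (chromosome 2, 152109193 to 152111376, plus strand). Under DMSO there were 1123, 1321 and 966 normalized counts at day −2, 2268, 3217 and 2117 at day 1, 932, 1039.7 and 977 at day 3, and 2265, 2591 and 2340.3 at day 7. Days 1 and 7 lay above days −2 and 3 with no overlap. The log2 change was 1.16 (SE 0.18, adjusted p = 0.00031) at day 1 and 1.08 (SE 0.18, adjusted p = 0.0002) at day 7. At 0.01 the calls were lost without replicate A (0.027 and 0.015), and that of day 1 also without C (0.011).

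The day 1 level of Srxn1 was lower with ML-792. It had 1503, 1278 and 1448 normalized counts at day 1, all below the DMSO libraries of that day, a log2 change of −0.85 (SE 0.16, 1.80-fold lower, adjusted p = 0.0017) that every alternative kept. At day 7 it had 1924, 1393 and 1735, again below DMSO, with a change of −0.51 (SE 0.16, adjusted p = 0.06). That second call was lost when any replicate letter was left out (0.24, 0.11 and 0.32 without A, B and C), with no filter on low counts (0.21) and with day 7 fitted alone (0.13). At days −2 and 3 the groups overlapped, at means of 1077 ± 69.9 and 1001 ± 93.6 with ML-792 (SD, n = 3).

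Txnrd1, the cytosolic thioredoxin reductase, was the gene in which replicate B departed most regularly. It was counted on NM_001042523.1 (chromosome 10, 82896046 to 82897724, plus strand). Its DMSO libraries had 840.3, 1475 and 825 normalized counts at day −2, 650.1, 1360.0 and 699 at day 1, 539.5, 997 and 676 at day 3, and 523, 869 and 549 at day 7. B was the highest library in all 8 groups, and each later day overlapped day −2. Within each letter the DMSO level was lower on each day than on the day before it. The log2 change at day 7 was −0.69 (SE 0.33, adjusted p = 0.1), and it passed the threshold without replicate B, at −0.64 (adjusted p = 0.0033). With a block for the replicate letter it passed at −0.68 (edgeR adjusted p = 0.00039), and the change at day 3 passed at −0.5 (0.0045). Over the 80 combinations of gene and group, B was highest in 45, A in 13 and C in 22, while over all tested genes B was highest in 37.6% of combinations, A in 28.4% and C in 34.1%. Hmox1 and Gclm had B highest in 7 of 8 groups each, and Nqo1 had C highest in 6.

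Nqo1, which reduces quinones to hydroquinones, fell at days 3 and 7 of DMSO and was lower with ML-792 than with DMSO at days 1 and 3. Its entry was NM_008706.5 (chromosome 8, 107388225 to 107388818, minus strand). The level in DMSO was 707, 467 and 783 normalized counts at day −2, 905, 705 and 956 at day 1, 343, 372 and 441 at day 3, and 296, 346 and 342 at day 7. Days 3 and 7 lay below the other days, with log2 changes of −0.76 (SE 0.21, adjusted p = 0.0082) and −0.99 (SE 0.21, adjusted p = 0.0012). Without replicate A these 2 values were 0.18 and 0.067, and without C 0.071 and 0.03.

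With ML-792, Nqo1 had 359, 398 and 534 normalized counts at day 1 and 238, 181 and 206 at day 3, all below DMSO. The log2 change was −0.99 (SE 0.21, 1.99-fold lower, adjusted p = 0.0039) at day 1 and −0.88 (SE 0.21, 1.85-fold lower, adjusted p = 0.0074) at day 3. At day 7 the level with ML-792 was 400.3, 322 and 473, which overlapped DMSO. The day 1 call was lost without replicate A (adjusted p = 0.33), and the day 3 call without C (0.13).

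Hmox1, heme oxygenase 1, which opens the heme ring to biliverdin, iron and carbon monoxide, dipped at day 1. It was read from the entry NM_010442.2 (chromosome 8, 75100020 to 75100593, plus strand). The DMSO level was 1325, 2186 and 1397 normalized counts at day −2, 422, 920.0 and 452 at day 1, 955, 1466 and 886 at day 3, and 2129, 1989 and 2284 at day 7. Day 1 was below day −2 in every library, with a log2 change of −1.45 (SE 0.30, 2.74-fold lower, adjusted p = 0.0023; 0.054 without replicate A and 0.038 without C). Days 3 and 7 overlapped day −2. Without B the changes at those days passed the threshold, at −0.56 (adjusted p = 0.0022) and 0.70 (0.00043).

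With ML-792, Hmox1 was lower at day 7. It had 692, 1577 and 672 normalized counts, against 2129, 1989 and 2284 in DMSO. All 3 libraries were below the DMSO libraries, A and C by more than B, and the log2 change was −1.12 (SE 0.33, adjusted p = 0.044). The call was lost without A (0.42) or C (0.47). The interaction of day and treatment had an adjusted p of 0.29 for Hmox1, and without replicate B one of 5.8e-07.

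Cat, catalase, showed the largest rise over day −2 in DMSO, and it was higher still with ML-792 at days 3 and 7. Its reads were counted on NM_009804.2 (chromosome 2, 103453904 to 103454755, minus strand). In DMSO it had 1390.1, 1224 and 1230.0 normalized counts at day −2, 1712, 1874 and 1714 at day 1, 3462, 4187 and 3912 at day 3, and 7767, 13296 and 7940.3 at day 7. The groups did not overlap from day to day. The log2 change was 1.59 (SE 0.20, 3.01-fold, adjusted p = 1.5e-05) at day 3 and 2.92 (SE 0.21, 7.54-fold, adjusted p = 3.6e-08) at day 7.

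With ML-792, Cat had 1355, 1454 and 1254 normalized counts at day −2 and 2051, 2458 and 2171 at day 1, and then 11540.4, 12434 and 12436 at day 3 and 23968, 24307 and 21458 at day 7. The libraries of day 3 with ML-792 lay above replicates A and C of DMSO at day 7 and below its replicate B. Days 1, 3 and 7 lay above DMSO in every library, day 1 without a call (log2 change 0.33, adjusted p = 0.35). The log2 change against DMSO was 1.66 (SE 0.17, 3.15-fold, adjusted p = 2e-07) at day 3 and 1.27 (SE 0.17, 2.40-fold, adjusted p = 1.6e-05) at day 7. All 4 of these calls of Cat were kept in the 8 alternatives. The adipocyte markers summed to 391781 to 453958 with ML-792 at day 3 against 336296 to 486271 in DMSO, and to 756551 to 823047 against 570180 to 629014 at day 7. These sums rest mostly on the most abundant genes, and single markers differed. Of the 6, 0 were called higher and 2 lower (Lpl, Adipoq) with ML-792 at day 3, beside 8.42% and 6.97% of all genes. At day 7, 2 were higher (Fabp4, Adipoq) and 0 lower, beside 6.03% and 5.58%. The day 3 mean of Adipoq was 16749 with ML-792 and 30446 in DMSO, while that of Fabp4 was 214706 and 136324. The pre-adipocyte markers summed to 9719 to 10993 with ML-792 against 4727 to 5982 in DMSO at day 3, and to 3133 to 4093 against 4265 to 4758 at day 7. At day 3, 3 of the 5 were called higher with ML-792 (Pdgfra, Thy1, Ly6a) and 0 lower, beside 8.42% and 6.97% of all genes. The day 3 mean of Ly6a was 4274 with ML-792 and 361 in DMSO, while that of Dlk1, which was not called, was 2525 and 3569.9. At day 7, 2 of the 5 pre-adipocyte markers were called higher with ML-792 and 1 lower. Higher were Pdgfra (mean 975, and 459 in DMSO) and Ly6a (507 and 253), and lower was Dlk1 (1483 and 3109), the most abundant of the 5. The part of these markers in the change of Cat was not tested.

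The 10 genes did not move as a block. Over the 8 group means of log2 normalized counts, Pearson's r was below 0 in 24 of the 45 pairs of genes, with a median of −0.10. It was above 0.8 for Keap1 with Gclm (0.94) and Gclm with Cat (0.89), and below −0.8 for Gclc with Slc7a11 (−0.89) and Keap1 with Txnrd1 (−0.83). These values describe 8 means that share libraries and carry no test. Outside the set, the genes with the most similar course over the 8 means were Gpat4 (r = 0.995) and Gm32998 for Cat, Opa3 (0.997) and Ndufs8 for Gclm, Egln3 (0.992) and Gde1 for Keap1, St3gal2 (0.985) and Svil for Nqo1, and Peli2 (0.983) and Lsm3 for Gclc. They were Cdk6 (0.978) and Slc7a1 for Slc7a11, Gm38876 (0.974) and Aste1 for Hmox1, Rnf135 (0.971) and Il1rn for Srxn1, Ppp1cc (0.961) and Proser1 for Txnrd1, and Mdn1 (0.926) and Gm16794 for Nfe2l2.

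Labelled reads fell for most genes after day −2. Over all entries their share of the reads was 3.17% in DMSO at day −2 and 1.27%, 1.03% and 1.03% at days 1, 3 and 7. At the library sizes of the total reads, the median log2 change of labelled reads over 5733 tested genes was −1.17, −1.59 and −1.46 at days 1, 3 and 7, and 97.0%, 94.1% and 93.3% of the called genes were lower. When libraries were scaled by their labelled reads, these shares were 50.0%, 42.5% and 43.7%. Labelled changes are therefore given beside the change relative to the median gene. Of the 10 genes, 8 passed the filter. Nqo1 and Slc7a11 had at most 10 and 11 labelled reads in a library and were not tested.

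At day 1, 0 of the 8 genes were called higher and 2 lower in labelled reads (Hmox1, Txnrd1), beside 0.628% and 20.4% of genes. At day 3, 0 were higher and 4 lower (Txnrd1, Srxn1, Hmox1, Nfe2l2), beside 2.16% and 34.8%. At day 7, 1 was higher (Cat) and 3 lower (Nfe2l2, Txnrd1, Hmox1), beside 2.18% and 30.6%. When libraries were scaled by labelled reads, 6.49%, 13.8% and 13.1% of all genes were called at days 1, 3 and 7. Of the 8 genes, 1 was called on each day, Hmox1 lower at day 1 and Cat higher at days 3 and 7. The other calls were lost there with their direction kept, and of the changes that were never called, 9 changed sign.

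Hmox1 had 176.7, 185 and 124 labelled reads after normalization in DMSO at day −2, and 12.9, 27.3 and 10.7 at day 1. Every day 1 library was below day −2, and the log2 change was −3.25 (SE 0.44, adjusted p = 2.9e-07), or −2.08 relative to the median gene. Scaled by labelled reads it was −1.99 (adjusted p = 0.00065). At days 3 and 7 the labelled counts were 39.4, 59.1 and 27.8, then 57.5, 62.6 and 54.8. The changes there, −1.94 and −1.47, were −0.35 and −0.01 relative to the median gene. At an adjusted p of 0.01 they were lost without replicate A (0.015 and 0.059), and that of day 7 also without C (0.019).

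Txnrd1 had 56.5, 94.8 and 48.0 at day −2 on the same scale, and 0.0, 9.1 and 10.7 at day 1. Its labelled reads at day 1 were all below day −2, while its total reads overlapped. The log2 change was −3.29 (SE 0.64, adjusted p = 0.00013), or −2.11 relative to the median gene, and scaled by labelled reads it missed the threshold (adjusted p = 0.019). The labelled counts were 8.8, 23.2 and 4.6 at day 3 and 16.9, 20.9 and 16.0 at day 7. The changes were −2.44 and −1.88, or −0.84 and −0.42 relative to the median gene. They were lost without replicate A (adjusted p = 0.014 and 0.039) or C (0.018 and 0.03), that of day 7 also without B (0.032) and with a background of conversions taken off (0.012).

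In labelled reads Nfe2l2 had normalized values of 88.4, 96.6 and 78.2 at day −2, 34.0, 53.7 and 9.9 at day 1, 19.7, 25.5 and 33.6 at day 3, and 28.2, 14.6 and 14.8 at day 7. All later libraries were below day −2, whereas the total reads overlapped. The log2 change was −1.74 (adjusted p = 0.003) at day 3 and −2.19 (0.00046) at day 7, or −0.14 and −0.72 relative to the median gene. At day 1 it was −1.43 (adjusted p = 0.016; 0.0033 without replicate B), and the day 3 call was lost without A (0.057). Srxn1 had 43.4, 25.9 and 39.1 at day −2 and 9.8, 0.0 and 16.2 at day 3, a change of −2.04 (adjusted p = 0.0053), or −0.45 relative to the median gene, lost without A (0.065) or B (0.012).

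Cat was the one gene of the 8 that was called higher in labelled reads. Normalized values of its labelled reads were 21.3, 5.4 and 7.1 at day −2, 9.2, 19.1 and 19.8 at day 1, 37.2, 41.7 and 18.5 at day 3, and 42.9, 90.7 and 72.0 at day 7. Day 7 was above day −2 in every library, with a log2 change of 2.58 (SE 0.54, adjusted p = 0.00018), 4.05 above the median gene. At day 3 the change was 1.51 (adjusted p = 0.019), which passed the threshold with the background of conversions taken off (0.0081) or when scaled by labelled reads (log2 change 3.11, adjusted p = 3.3e-06).

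**Figure D3:**
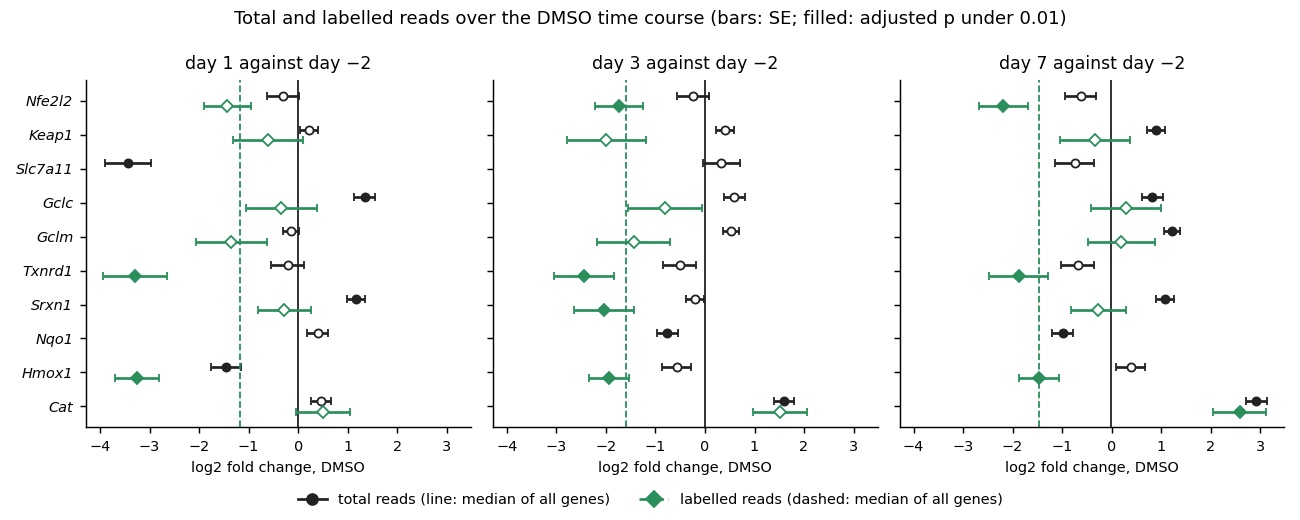
Log2 fold change over day −2 in DMSO (x axis) of the 10 genes (y axis) at days 1, 3 and 7, black circles for total reads and green diamonds for labelled reads, with bars for the standard error, filled where the adjusted p was under 0.01, and vertical lines at the median of all tested genes. Labelled Txnrd1 and Hmox1 lay far left of the dashed median at day 1 (−3.29 and −3.25 against −1.17), and Cat lay right of it at day 7 (2.58 against −1.46).

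The labelled share of a gene's own reads needs no library scale. It depends on the T bases of the entry, so neither its size nor its ratio to the share over all entries is set against that of another gene. The ratio is given to follow 1 gene across groups whose labelling differed. For Hmox1 it was 10.2% ± 2.7 in DMSO at day −2 and 2.8% ± 0.37, 3.76% ± 0.547 and 2.75% ± 0.375 at days 1, 3 and 7 (SD, n = 3). For Txnrd1 it was 6.32% ± 0.463, then 0.734% ± 0.769, 1.54% ± 0.823 and 2.85% ± 0.423. That of Txnrd1 was 2.02 ± 0.305 times the share over all entries at day −2, 0.561 ± 0.563 times at day 1 and 2.77 ± 0.219 times at day 7. For Nfe2l2 the share was 8.43% ± 2.0, then 3.53% ± 1.92, 2.89% ± 0.999 and 2.79% ± 0.918. Its ratio to the share over all entries was 2.64 ± 0.369, then 2.83 ± 1.6, 2.82 ± 0.999 and 2.76 ± 1.03. With SDs of this size a change of the ratio could be missed. For Cat the group means in DMSO lay between 0.714% and 0.904%.

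**Figure D4:**
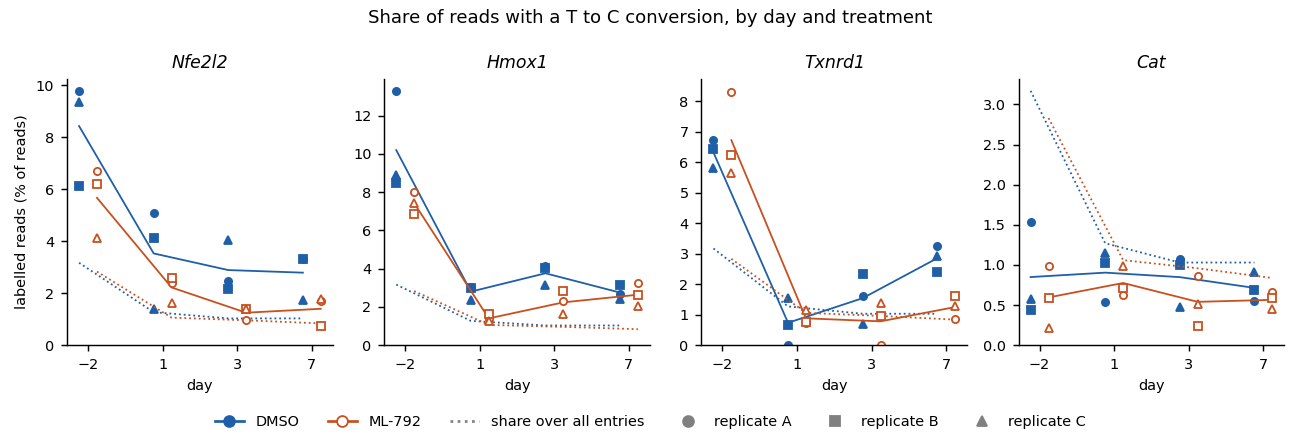
Labelled reads as a percentage of all reads of the gene (y axis, from 0) for Nfe2l2, Hmox1, Txnrd1 and Cat by day (x axis), DMSO in blue and ML-792 in orange, points for the 3 libraries, solid lines for their means and dotted lines for the share over all entries. Txnrd1 in DMSO had a mean of 6.32% at day −2 and 0.734% at day 1 and was 2.85% at day 7, and Cat stayed under 1% in every group mean.

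With ML-792 no labelled change was called. edgeR and DESeq2 both called 0 of the 8 genes on every day, beside 0%, 1.06%, 1.12% and 0.964% of the 6434 tested genes at days −2, 1, 3 and 7 with edgeR, and 1, 2, 2 and 2 of the 8 genes had an unadjusted p under 0.05, against 0.715%, 11.6%, 10.3% and 11.7% of all tested genes. The interaction called 0 of the 8 with either tool, beside 0.28% of genes with edgeR, and 0 had an unadjusted p under 0.05, against 8.32% of all tested genes. The median gene moved by −0.18, −0.31, −0.07 and −0.37 on the 4 days. Labelled reads of Cat with ML-792 at day 7 were 158.5, 143 and 95.6 after normalization, above the 42.9, 90.7 and 72.0 of DMSO. The log2 change was 0.95 (SE 0.44), at an adjusted p of 0.4. Hmox1 at day 7 had 22.6, 41.2 and 13.7 with ML-792, below the 57.5, 62.6 and 54.8 of DMSO, at an adjusted p of 0.25. Nfe2l2 at day −2 had 57.0, 45.3 and 35.5 against 88.4, 96.6 and 78.2 in DMSO, at an adjusted p of 1. Counting all genes without overlap, 2, 2, 1 and 3 of the 8 lay below DMSO on the 4 days and 0, 0, 0 and 1 above. Among all tested genes 8.59%, 15.6%, 13.3% and 15.8% had no overlap. The 2 below at day 1 were Srxn1 (log2 change −1.17, adjusted p = 0.41) and Hmox1 (−1.12, 0.38).

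The wider antioxidant pathway was read from 75 other genes in 6 lists, 73 of which were tested in total reads. At day 7 of DMSO, 30 were higher and 11 lower, with a median log2 change of 0.60, where 19.6% and 20.1% of all genes were called. At day 3 the counts were 24 and 18, beside 17.4% and 20.1% of all genes, and at day 1 they were 6 and 13, beside 7.29% and 10.3%. NADPH is the reducing power of the glutathione and thioredoxin systems, and not every enzyme listed here under its supply makes it directly. All 7 genes of that list were higher at days 3 and 7, with medians of 1.91 and 1.94. Among them the transaldolase Taldo1 went from 1271 ± 110.0 to 9852 ± 2006 normalized counts at day 7 (log2 change 2.95, adjusted p = 1.1e-08), the mitochondrial folate enzyme Mthfd2 rose by 2.07 (3.8e-07) and the glucose-6-phosphate dehydrogenase G6pdx by 2.03 (1.5e-06).

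Of the 17 thioredoxin, peroxiredoxin and superoxide dismutase genes, 7 were higher and 3 lower at day 7 (median 0.86), beside 19.6% and 20.1% of all genes. The cytosolic superoxide dismutase Sod1 went from 6534 ± 333 to 39730.1 ± 10641 normalized counts (log2 change 2.60, adjusted p = 6.8e-08), the mitochondrial Sod2 rose by 2.10 (1.5e-06) and mitochondrial thioredoxin Txn2 by 1.67 (1.9e-06). The secreted Sod3 fell by 1.12 on the log2 scale (0.00079), the endoplasmic reticulum peroxiredoxin Prdx4 by 2.33 (0.00034) and the sestrin Sesn3 by 1.53 (1e-05). Of 16 tested genes of glutathione synthesis and use, 6 were higher and 3 lower. The microsomal transferases Mgst3 and Mgst1 rose by 3.11 (2.2e-06) and 1.78 (7.2e-06) and the lipid peroxide reductase Gpx4 by 1.55 (0.00026), while Gpx8, Gpx7 and Gstm2 fell by 1.84 (9.7e-06), 1.70 (3.7e-06) and 0.96 (0.00074). Gstm2 has near-identical relatives whose reads the authors' counting could share, so its value is uncertain.

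Of the 8 heme and iron genes, 4 were higher and 1 lower at day 7, beside 19.6% and 20.1% of all genes. The transferrin receptor Tfrc rose by 1.72 (adjusted p = 3.3e-05), the biliverdin reductase Blvrb by 0.81 (0.0017) and ferrochelatase, Fech, by 0.72 (0.0016). The iron exporter Slc40a1 fell by 4.48 on the log2 scale (9.2e-09), from 923 ± 121 to 41.5 ± 9.0 normalized counts. Of the 14 detoxification and efflux genes, 6 were higher and 3 lower, with Osgin1 at 3.30 (7.4e-06), the aldehyde oxidase Aox1 at 2.89 (5.9e-06) and the carbonyl reductase Cbr1 at 2.83 (2.6e-05), against Ptgr1 at −1.69 (2.3e-05), Ugdh at −1.33 (2.4e-05) and Aldh3a2 at −0.83 (0.0046). Beside the same 19.6% and 20.1% of all genes, none of the 11 partners and regulators of NRF2 was higher at day 7, and 1 was lower. That was Bach1, a repressor that competes with NRF2 at antioxidant response elements, which fell by 1.89 on the log2 scale (6.6e-07), from 796 ± 97.2 to 214 ± 16.5 normalized counts.

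With ML-792 the 73 genes gave 7 higher and 3 lower at day 1, where 3.72% and 4.31% of all genes were called. They gave 16 and 7 at day 3, beside 8.42% and 6.97%, and 8 and 8 at day 7, beside 6.03% and 5.58%. At day −2 edgeR called none, of these or of all genes. Among the partners and regulators of NRF2, 0 of 11 were higher and 3 were lower at day 7: the repressor Bach2, by 1.77 (adjusted p = 0.0057), the small MAF gene Maff, which fell by 1.29 (0.011), and Sqstm1, the selective autophagy receptor that binds KEAP1, which fell by 1.01 (9.9e-05), from 12482 ± 952 to 6212 ± 518 normalized counts. Of the glutathione genes, Mgst1 rose by 1.37 (4e-05), Gpx8 by 1.34 (5.3e-05) and the glutaredoxin Glrx by 0.60 (0.03), and Chac1, which degrades glutathione, fell by 1.41 (0.017). Sesn1 and Sesn3 rose by 1.28 (0.00099) and 0.85 (0.0021), and Sod1 fell by 0.50 (0.053). The remaining calls at day 7 were Idh1 (0.88), Tfrc (0.62) and Blvra (0.54), which were higher, and Mthfd2 (−0.61), Abcc4 (−1.23) and Cbr1 (−1.21), which were lower.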

How the data were processed

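The members and gene lists were chosen with earlier results of these data known. Cells of 8 groups, 3 biological replicates each, were read as QuantSeq and SLAMseq from the same 24 libraries. The authors demultiplexed with bcl2fastq 2.17.1.14, mapped and filtered reads with SlamDunk on mm10, counted them on RefSeq 3′UTR entries and deposited raw counts of total reads and of labelled reads, not normalized. In total and in labelled reads, 6 library columns match no sample and were not used. Entry lengths and numbers of T bases, also deposited by the authors, are other values that entered no test. Groups came from sample titles.

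Counts were fitted with edgeR 4.0.16 (robust quasi-likelihood, limma 3.58.1, R 4.3.3) and TMM factors of the total reads, also for labelled reads, after filterByExpr (minimum count 10, minimum total 15): 12 DMSO libraries for the time course and 24 for ML-792 and the interaction, with Benjamini-Hochberg adjustment over all tested entries. Standard errors are the log2 change over the square root of F. Normalized counts are at the mean effective library size, and log2 means used a prior count of 2. The code was tested on simulated data. Alternatives were DESeq2 1.42.0, no filter, a single entry for every gene, a block for the replicate letter, each letter left out, other libraries in the fit and, for labelled reads, scaling by labelled reads and subtracting a conversion background, set for each library at percentile 1 of labelled shares (entries of 1000 or more reads). The authors' own tests are not used here. Named pathway genes are at most 3 called per list and direction with the largest change at day 7 in DMSO and at day 7 with ML-792, and the 2 genes most correlated with each member were named.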

Additional observations from a re-analysis of the deposited data

Results flagged for a closer look

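The course over the days differed between ML-792 and DMSO for 4 of the 10 genes by edgeR's interaction test in total reads. Cat had an adjusted p of 0.00011, with calls of ML-792 against DMSO at days 3 and 7. At day 1 all 3 libraries also lay above DMSO, by a log2 change of 0.33 that was not called. The adjusted p of the interaction for Cat was 0.12 without replicate A, so that call was lost. Nqo1 had an adjusted p of 0.0065, with lower levels at days 1 and 3 and overlap at days −2 and 7, and values of 0.34 without A and 0.16 without C. Slc7a11 had an adjusted p of 0.013, with lower levels at days 3 and 7 at 14.1 to 37.8 normalized counts, and values of 0.54 without A and 0.14 without C. Srxn1 had an adjusted p of 0.046, with lower levels at days 1 and 7, and values of 0.56 without A, 0.37 without C and 0.15 with no filter on low counts. No cause was tested.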

How the results depend on the processing

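Among the called total-read changes, those of Cat between days and with ML-792 at days 3 and 7, of Gclm at day 7, of Slc7a11 at day 1 and of Srxn1 with ML-792 at day 1 passed the threshold in all 8 alternatives, and in labelled reads those of Hmox1 at day 1 and Cat at day 7 did in all 10. No called change turned its direction. Leaving out a letter gave these numbers of called genes: in total reads 1 to 4 at day 1, 1 to 5 at day 3 and 2 to 8 at day 7 of DMSO, 1 to 3 at day 1 and 1 to 3 at day 7 with ML-792, and 0 to 5 for the interaction, and in labelled reads 0 to 3 at day 3 and 2 to 3 at day 7. The low ends came without A or C. The number called with ML-792 at day 7 was 2 with no filter on low counts and 2 with that day fitted alone. The shares of all genes were 6.6% and 10.6%. Scaled by labelled reads, 1 gene was called at each of days 1, 3 and 7, beside 6.49%, 13.8% and 13.1% of all genes.

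The letters were not taken as pairs, since not every same-letter correlation of residuals was over 0.1. In total reads 68 of 84 same-letter pairs were over 0.1 against 20 of 168 with different letters, and within a day 9 of 12 (−0.0161 to 0.289) against 3 of 24. In labelled reads the counts were 22 of 84 and 0 of 168. With the replicate block, 4 genes were called at day 3 of DMSO in total reads, beside 46.4% of all genes. In labelled reads 1, Hmox1, was called with ML-792 at day 7 (adjusted p = 0.065), beside 2.39% of all genes. Without the block these shares of all genes were 37.5% and 0.964%. In total reads the replicate block called Txnrd1 at days 3 (0.0045) and 7 (0.00039) of DMSO and at day 3 with ML-792 (0.089). It also called the interaction of Hmox1 (0.00089), which no filter on low counts called too (0.0017). The block called 48.8% of all genes at day 7 of DMSO, 24.2% at day 3 with ML-792 and 25.2% in the interaction. Without it these shares were 39.7%, 15.4% and 11.9%.

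Of the changes called in no setting, 12 of 41 in total reads changed sign when a letter was left out, all between −0.12 and 0.18 with adjusted p from 0.49, and 21 of 43 in labelled reads did in some setting. Libraries of 115709 to 820046 labelled reads left 5733 to 6434 genes to test in labelled reads, against 12805 to 13331 in total reads.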
